A study of Mus musculus with 30 samples.

Results

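Natural killer (NK) cells of the recipients' own skin were compared with NK cells of the spleen in the B6 skin graft model, by RNA sequencing of sorted cells. The comparison rests on 6 of the 30 libraries of the series, 3 of CD49a+ cells from recipient skin and 3 of CD49b+ cells from spleen. Of 30587 named genes in the deposited table, 16045 had a normalized signal of 10 or more in at least 3 of the 30 libraries and were tested. Both groups came from C57BL/6 mice of the genotype NKp46iCre/iCre.RosamTmG/mTmG that carried an m157tgB2m-/- skin graft, and cells were taken at day 20 after grafting. In this reporter strain Cre is made from the locus of NKp46 (Ncr1) and switches a membrane reporter to GFP, so GFP marks cells that have expressed NKp46 at some time. Cells were sorted as NKp46-GFP+ and as CD49a+ or CD49b+, so organ and sort marker changed together and cannot be told apart. Every animal used here carried a graft, and nothing in the labels says whether libraries with different numbers came from separate animals, so p-values measure the spread between these libraries. For comparison, the B6 graft groups (CD49a+ and CD49b+ cells of the same model and day) and the F1 model were used. F1 mice were C57BL/6xBalb/c of the genotype NKp46+/iCre.Rosa+/mTmG with an m157tgB2m+/- graft, taken at day 10.

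NK cells are cytotoxic innate lymphocytes that kill through perforin and granzymes and are steered by activating and inhibitory receptors. In mice, CD49b (Itga2) marks the conventional NK cells that circulate through blood and spleen, whereas CD49a (Itga1), a collagen-binding integrin, marks cells that stay in liver, skin and other tissues. Cells that settle in tissue typically lose receptors for sphingosine-1-phosphate and gain anchoring molecules such as CD103 (Itgae), in many cases under TGF-beta. The viral protein m157, carried by the graft, is a ligand of Ly49H, which is encoded by Klra8.

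The 3 recipient skin libraries were unequal. The level of 20 pan-leukocyte transcripts, as a percentage of the circulating libraries, was 18.3%, 76.7% and 12.7% in recipient skin libraries 1, 2 and 3 and 98.2% to 107% in spleen. Across genes, log2 values of recipient skin libraries correlated with r = 0.41 to 0.57, against 0.84 to 0.87 in spleen. A set of 13 abundant predicted genes held 18.8%, 70.5% and 21.4% of the signal in recipient skin and 83.0% to 85.3% in spleen. In bulk libraries, fewer leukocytes and less RNA per leukocyte cannot be told apart. Results are therefore given on the deposited scale and, for selected lists and genes, in further forms: on a leukocyte scale, in which each library was shifted to an equal mean log2 level of the 20 pan-leukocyte genes, and with recipient skin library 2 alone, a setting added after the data were seen, in which the lone library is assumed to vary like the other groups. Of 96 named genes that passed on the deposited scale, 63 kept their call on the leukocyte scale and 42 with library 2 alone. Ikzf1, Itgb2, Vav1, Ptpn6 and Cd48 are among the 20 pan-leukocyte genes and also in gene lists below. Their leukocyte-scale values are partly fixed by that scaling. The leukocyte scale raises every recipient skin library and leaves spleen near its level, so it favours rises. Of the 2866 genes higher on the deposited scale, 2864 passed there too. A rise that passes there, such as those of Gzmc and Areg below, therefore gains no further support from it. Genes that every cell uses, such as Fau, were listed at 0 in single recipient skin libraries, so a value of 0 is given only as listed at 0.

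Itga1 and Itga2, the genes of the sorted integrins, followed the labels. Itga1 had a signal of 52.1, 125 and 41.0 in the recipient skin libraries and 13.1, 4.08 and 7.41 in spleen. Itga2 had 17, 12.8 and 9.82 in recipient skin and 40.8, 53.0 and 47.1 in spleen. The groups did not overlap for either gene, and no test is read from them because they defined the sort. Ncr1, which carries the iCre insert in both groups and drives the reporter used in the sort, was at 22.3, 8.48 and 24.1 in recipient skin and at 325, 391 and 384 in spleen. It fell 20.7-fold (log2 change -4.37 ± 0.44, mean ± SE; limma adjusted p = 4.67e-07), and all 3 recipient skin libraries lay far below all 3 spleen libraries. The fall passed on the leukocyte scale (adjusted p = 0.00881) and with library 2 alone (adjusted p = 1.45e-06). Ctsw was the most abundant NK cell marker in recipient skin. On the leukocyte scale it was higher there than in spleen (log2 change 1.38, limma adjusted p = 0.0375). On the deposited scale, of 18 NK cell markers, 14 were lower in recipient skin (adjusted p below 0.05) and 0 higher. Of these markers 1 was listed at 0, in library 1. The count was 5 with library 2 alone and 9 without recipient skin library 1 or 3.

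**Figure D1:**
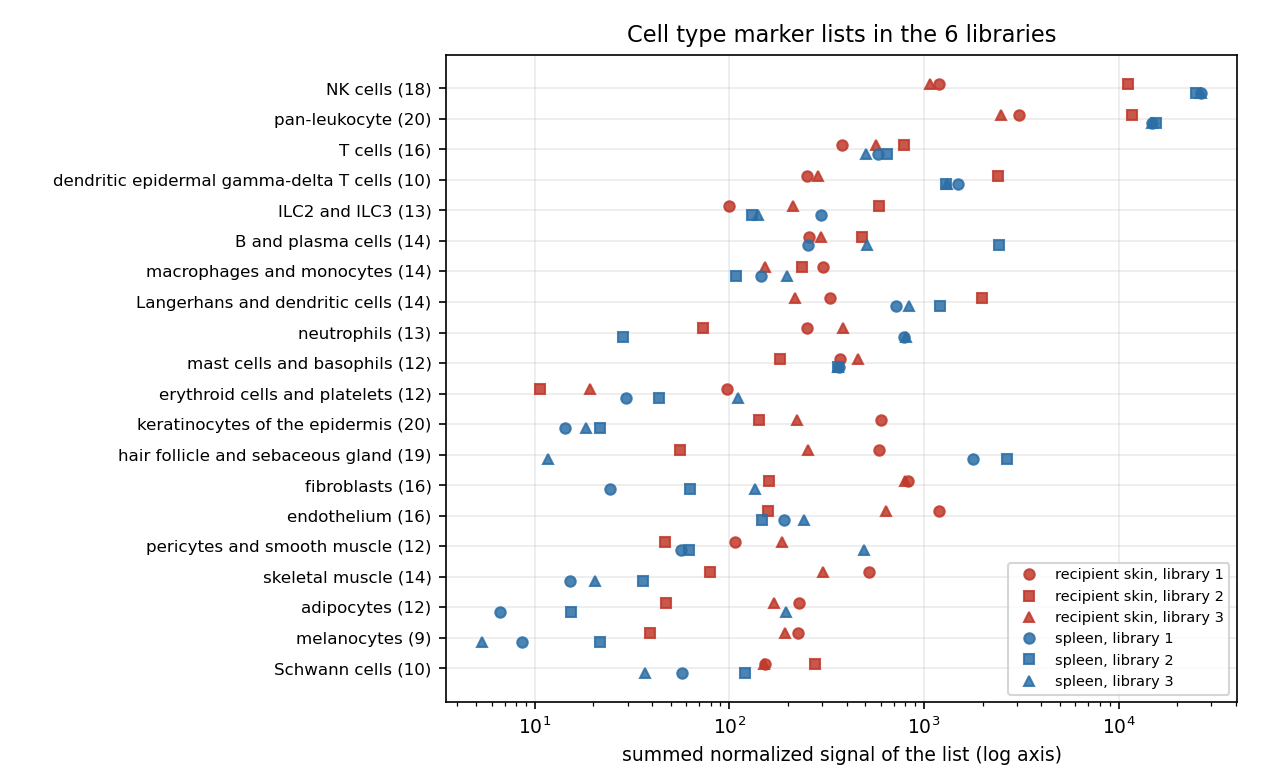
Summed normalized signal (log axis) of 20 cell type marker lists in the 3 recipient skin (red) and 3 spleen (blue) libraries; the number of list members in the table stands in brackets and the symbol gives the library number. NK cell markers summed to 1188, 11204 and 1070 in recipient skin and to 24912 to 26457 in spleen, and fibroblast markers to 825, 160 and 802 against 24.4 to 136.

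In the whole table, 4625 of 16045 (28.8%) differed between recipient skin and spleen at an adjusted p below 0.05 (limma on log2 of the signal plus 1, Benjamini-Hochberg). Of these 2866 were higher (17.9%) and 1759 lower (11.0%), and the median change of all genes was 0.40 on the log2 scale. Counts in the lists below stand against these shares, and on the leukocyte scale against 34.9% and 1.22%. The split rested on the scaling: 5593 were higher and 196 lower on the leukocyte scale, 1506 and 1937 after quantile normalization, 4708 and 509 with libraries scaled to 1 common total, and 2188 and 2996 with that total taken outside the 13 predicted genes. It was 1222 and 1332 with a filter of 50 and 1370 and 1767 with the filter applied within the 6 libraries. With library 2 alone 250 genes were higher and 191 lower. Of the 2866 higher genes, 192 also passed in that direction both on the leukocyte scale and with library 2 alone; of the 1759 lower genes, 55 did. The total was 2534 without recipient skin library 1 and 2595 without library 3, 2778 without spleen library 1 and 2820 without spleen library 3. With limma fitted on the 6 libraries alone, without the spread of the other groups, 769 genes passed, 616 higher and 153 lower. Of the 96 named genes that passed on the deposited scale, 43 kept their call in that fit. Of the 2866 higher genes 1081 passed whichever of the 6 libraries was left out, and of the 1759 lower genes 528 did.

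Among the genes named by the rule given with the methods, the largest rise was that of Gzmc, which encodes granzyme C, a protease of cytotoxic granules. The gene lies at chr14:56231441-56234656 on the minus strand of GRCm38 (GENCODE M21). Its signal was 838, 4181 and 359 in recipient skin and 0.418, 0 and 0.534 in spleen. Every skin library lay far above every spleen library, and library 2 was the highest. Gzmc rose by 9.70 ± 1.04 on the log2 scale (adjusted p = 9.25e-07), and it passed on the leukocyte scale (adjusted p = 7.15e-10) and with library 2 alone (adjusted p = 2.34e-05). Its near neighbours in the granzyme cluster, Gzmd, Gzme, Gzmf and Gzmg, were at 0 to 1.54 in all 6 libraries; how reads shared between such copies were assigned is not given in the sources used here. Areg encodes amphiregulin, a ligand of the EGF receptor that takes part in tissue repair. The gene lies at chr5:91139599-91148432 on the plus strand. It was at 60.7, 351 and 13.7 in recipient skin and listed at 0 in all spleen libraries (adjusted p = 0.000388), and it passed on the leukocyte scale (adjusted p = 4.28e-05) and with library 2 alone (adjusted p = 0.000514).

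Gzmc and Areg were the 2 of the 9 largest rises with a RefSeq promoter that held the cAMP response element TGACGTCA, read on both strands, in the 250 bases before the gene start. They are shown with Dusp1, the only 1 of 11 immediate early genes that rose, and had a promoter in the table, with this motif. Each stretch is 100 bases of GRCm38.p6 (RefSeq), written 5′ to 3′ on the strand of the gene, and the capitals mark the motif. The Gzmc stretch is chr14:56234665-56234764 on the minus strand, the Areg stretch chr5:91139488-91139587 on the plus strand and the Dusp1 stretch chr17:26508566-26508665 on the minus strand.
Gzmc: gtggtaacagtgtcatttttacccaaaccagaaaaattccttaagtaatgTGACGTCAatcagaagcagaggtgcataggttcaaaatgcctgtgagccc
Areg: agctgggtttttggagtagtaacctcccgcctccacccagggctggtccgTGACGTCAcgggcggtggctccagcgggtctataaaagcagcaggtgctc
Dusp1: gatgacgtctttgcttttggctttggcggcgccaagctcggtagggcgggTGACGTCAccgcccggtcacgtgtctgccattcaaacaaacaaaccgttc
The motif begins 57, 61 and 143 bases before the start of Gzmc, Areg and Dusp1. The same letters were found in 478 of 27025 promoters (1.77%), in 305 of 11148 promoters of tested genes (2.74%) and in 1 of 8 promoters of the largest falls (Fau). The AP-1 motif TGANTCA, read on both strands in the same window, was in 7.82% of all promoters, 6.63% of those of tested genes and 0 of the 9 largest rises. Neither motif contains the other. Both were chosen after the values and promoters had been seen, and a match is a description of the letters only.

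**Figure D2:**
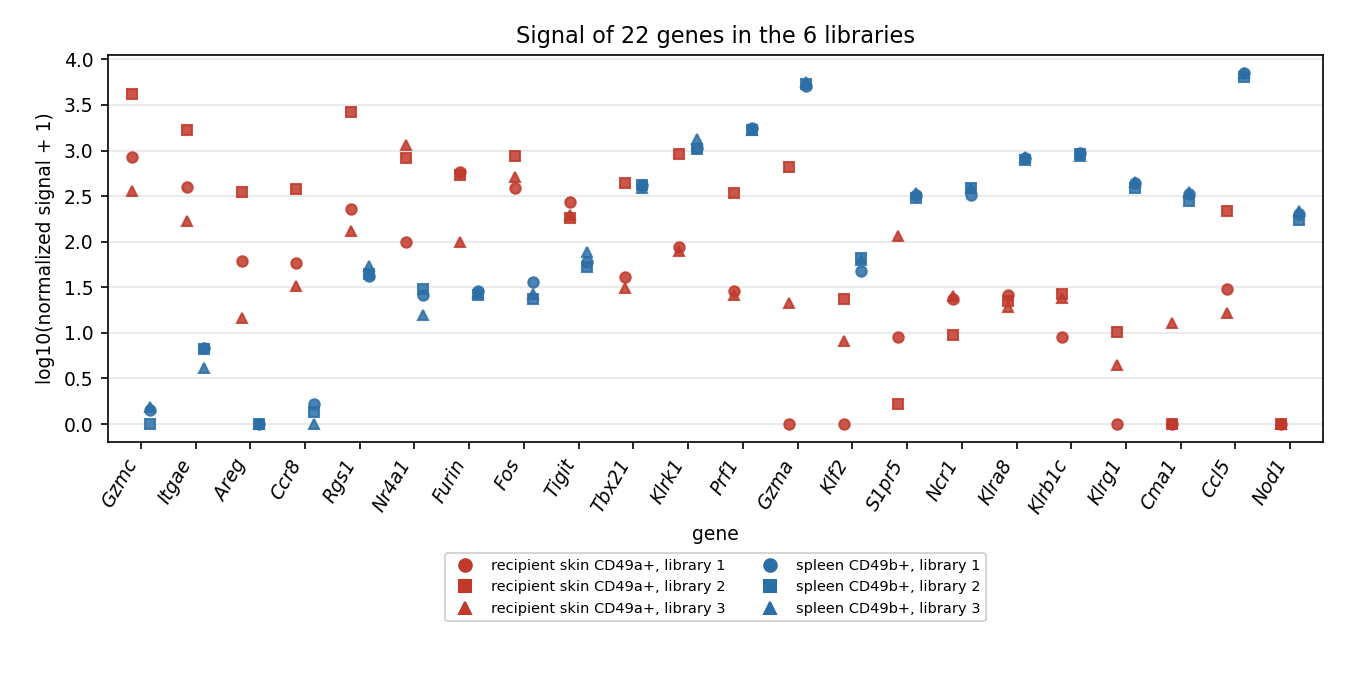
Signal of 22 genes as log10 of the normalized signal plus 1 in each of the 3 recipient skin (red) and 3 spleen (blue) libraries, with the symbol for the library number. Gzmc, Itgae, Areg and Ccr8 lie above spleen in every recipient skin library, Ccl5, Klra8, Klrb1c and Nod1 lie below it, and Tbx21 and Klrk1 of library 2 lie near spleen.

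Residency genes were the first group that stood higher in recipient skin. Of 24 such genes listed, 23 were tested, and 13 rose and 0 fell (median log2 change 2.11). Itgae (chr11:73090583-73147446, plus strand), the CD103 chain that binds E-cadherin on epithelium, was at 395, 1674 and 169 in recipient skin and at 5.82, 5.62 and 3.08 in spleen. The lowest skin library far exceeded the highest spleen library, and Itgae rose 85-fold (log2 6.41 ± 0.98, adjusted p = 0.000179). Folds throughout are of the fitted signal plus 1. Rgs1, a regulator that dampens chemokine receptor signals, was at 229, 2669 and 130 against 40.7, 43.0 and 52.6 and rose 9.36-fold (adjusted p = 0.00877). Library 2 carried most of the Rgs1 signal, and without it the change was 1.91 (adjusted p = 0.0574).

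Nuclear receptor genes of the Nr4a family, which are induced by stimulation and high in many resident lymphocytes, were among those that rose. Nr4a1 was at 98.4, 832 and 1150 in recipient skin and at 24.7, 29.5 and 14.8 in spleen (19.7-fold, adjusted p = 0.000288). Here libraries 2 and 3 were high, and library 1 was the lowest but still above every spleen library. Nr4a3 rose 5.54-fold (adjusted p = 0.0117, 0.0651 without recipient skin library 2). Litaf, which encodes an endosomal protein, rose 6.19-fold (adjusted p = 0.00184) and the lysophospholipid receptor gene Gpr55 rose 16.2-fold (adjusted p = 0.00151). Fosl2, an AP-1 member, and Kdm6b, a histone demethylase, rose 5.80-fold and 3.92-fold (adjusted p = 0.006 and 0.00779).

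Cd69, the best known residency marker and an antagonist of S1PR1, was at 51.7, 470 and 77.0 against 75.4, 73.8 and 57.8 and did not pass (adjusted p = 0.399). Only library 2 lay clearly above spleen. Prdm1 and Runx3, which encode transcription factors of resident lymphocytes, did not pass either (adjusted p = 0.0831 and 0.456); Prdm1 was at 35.6, 0.718 and 13.1 against 33.2 to 45.0. Scaled to leukocyte RNA, 19 of the 23 genes rose (34.9% of all genes did). Library 2 alone gave 9 rises and 1 fall (1.56% and 1.19% of all genes). Of the 13 that rose, 6 passed whichever library was left out, and the count was 7 without recipient skin library 2.

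Genes of egress and recirculation were lower. Of 17 tested, 11 fell and 0 rose (median -2.67). S1pr5, the sphingosine-1-phosphate receptor that NK cells use to leave tissue, was at 8.09, 0.673 and 114 in recipient skin and at 327, 300 and 342 in spleen and fell 26.8-fold (adjusted p = 0.00119). Library 2, the one richest in leukocyte RNA, had the least S1pr5. Every skin library lay below every spleen library.

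Klf2, the transcription factor that drives S1pr1, was at 0, 22.6 and 7.08 against 46.8, 65.5 and 61.6 (adjusted p = 0.0027). S1pr1 itself was at 58.3, 20.4 and 0 against 59.8 to 74.5 and did not pass (adjusted p = 0.076). Rasa3 and Rap1gap2, which switch off Ras and Rap GTPases, fell 13.6-fold and 16.4-fold (adjusted p = 0.000314 and 0.0003). The shared beta-2 integrin chain Itgb2 was at 99.9, 518 and 38.4 against 1367 to 1455 and fell 11-fold (adjusted p = 0.0015; 0.465 with library 2 alone). Klf2 and Rap1gap2 did not pass on the leukocyte scale (adjusted p = 0.115 and 0.111), nor Klf2 with library 2 alone (adjusted p = 0.451). The fall of S1pr5 passed with library 2 alone (adjusted p = 3.52e-05) but not on the leukocyte scale (adjusted p = 0.0921). Scaled to leukocyte RNA, 3 of the 17 fell and 1 rose, and with library 2 alone 6 fell; 8 of the 11 passed whichever library was left out.

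Of 17 integrin genes tested apart from those of the sort, 3 rose and 4 fell (median -0.98), against 17.9% and 11% of all genes. Itgb1, the partner chain of both CD49a and CD49b, was at 38.4, 175 and 60.4 in recipient skin and at 345, 311 and 271 in spleen and fell 4.10-fold (adjusted p = 0.00314). All skin libraries were below all spleen libraries, but the fall passed neither on the leukocyte scale (log2 -0.09, adjusted p = 0.918) nor with library 2 alone (adjusted p = 0.546). The list held 6 rises and 1 fall on the leukocyte scale (median 0.96) and 1 of each with library 2 alone (median 0.59). It held 1 rise and 3 falls without recipient skin library 1, and 3 and 6 without library 2. Itga4 was at 444, 331 and 296 against 767 to 781 and did not pass (adjusted p = 0.138).

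Of 20 cytotoxic effector genes tested, 9 fell and 2 rose, Gzmc and Tnfsf10 (median -0.73). Gzma, granzyme A, was at 0, 654 and 20.5 in recipient skin and at 5087, 5307 and 5600 in spleen (log2 change -7.79 ± 1.27, adjusted p = 0.000288). Prf1, the pore-forming protein perforin, was at 28.0, 338 and 25.3 against 1748, 1693 and 1685 and fell 26.9-fold (adjusted p = 0.000542). Library 2 was much the highest of the skin libraries for both genes, yet below every spleen library. Both passed on the leukocyte scale (adjusted p = 0.000406 for Gzma and 0.000984 for Prf1), and neither passed with library 2 alone (adjusted p = 0.127 and 0.296).

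Nkg7, a granule membrane protein, fell 18.3-fold from 2659 to 2992 in spleen to 77.9, 759 and 59.0 (adjusted p = 0.00162; 0.471 with library 2 alone). Serpinb9b, an inhibitor of granule proteases, was at 39.8, 0 and 2.86 against 173 to 214 (adjusted p = 0.0002), and it passed with library 2 alone (adjusted p = 6.29e-07). Gzmb, granzyme B, was at 7.58, 418 and 18.5 against 509, 594 and 616 (adjusted p = 0.0248), with library 2 near spleen (adjusted p = 0.97 with that library alone and 0.107 on the leukocyte scale); it did not pass when any 1 of the 5 libraries other than recipient skin library 2 was left out (adjusted p = 0.0544 to 0.166). Tnfsf10, the death ligand TRAIL, was at 62.4, 148 and 36.7 against 2.47, 6.86 and 9.94 and rose 10.6-fold (adjusted p = 0.00207). The list's split was 5 rises and 5 falls on the leukocyte scale and 2 and 1 with library 2 alone. Without recipient skin library 1, or without library 3, 6 fell.

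Of 33 activating and inhibitory NK receptor genes tested, 19 fell and 0 rose (median -2.48). Klra8, which encodes the m157 receptor Ly49H, was at 24.7, 21.5 and 18.3 in recipient skin and at 822, 783 and 839 in spleen and fell 36.5-fold (log2 -5.19 ± 0.83, adjusted p = 0.000246). Klrb1c, the antigen NK1.1, was at 7.96, 25.9 and 22.9 against 943, 926 and 868 and fell 51.0-fold (adjusted p = 2.26e-07). Both genes were low in all 3 skin libraries, library 2 included.

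Klra4, an activating Ly49 receptor, was at 13.6, 1.57 and 12.3 against 902, 824 and 846 and fell 108-fold (adjusted p = 2.26e-07). Klre1, a lectin-like receptor that can inhibit or activate, was at 19.0, 9.10 and 18.8 against 390, 358 and 472 and fell 25.5-fold (adjusted p = 1.06e-05). Ly49 genes are near-identical copies on chromosome 6, and how reads shared between them were assigned is not given in the sources used here. NKG2D (Klrk1) differed from these: it was at 86.2, 919 and 78.9 against 1070, 1046 and 1348 (adjusted p = 0.0111), with library 2 near spleen. The same order held for Klrd1 (CD94) at 15.1, 282 and 12.4 and its partner Klrc1 (NKG2A) at 20.3, 208 and 18.3, against spleen levels of 450 to 536 and 234 to 255. Their adjusted p-values with library 2 alone were 0.951, 0.853 and 0.977, and Klrk1 and Klrc1 did not pass on the leukocyte scale either (adjusted p = 0.287 and 0.423). Without recipient skin library 1 they were 0.0767, 0.0502 and 0.124, and without library 3 they were 0.0818, 0.0554 and 0.131.

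Klra8, Klrb1c, Klra4 and Klre1 passed with library 2 alone and on the leukocyte scale (adjusted p for Klra8 0.0173 and 0.0023). Scaled to leukocyte RNA, 12 of the 33 fell and 3 rose, against 1.22% and 34.9% of all genes. Library 2 alone gave 8 falls and 0 rises. Of the 19 falls, 12 passed whichever library was left out, and the count was 12 without recipient skin library 3.

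**Figure D3:**
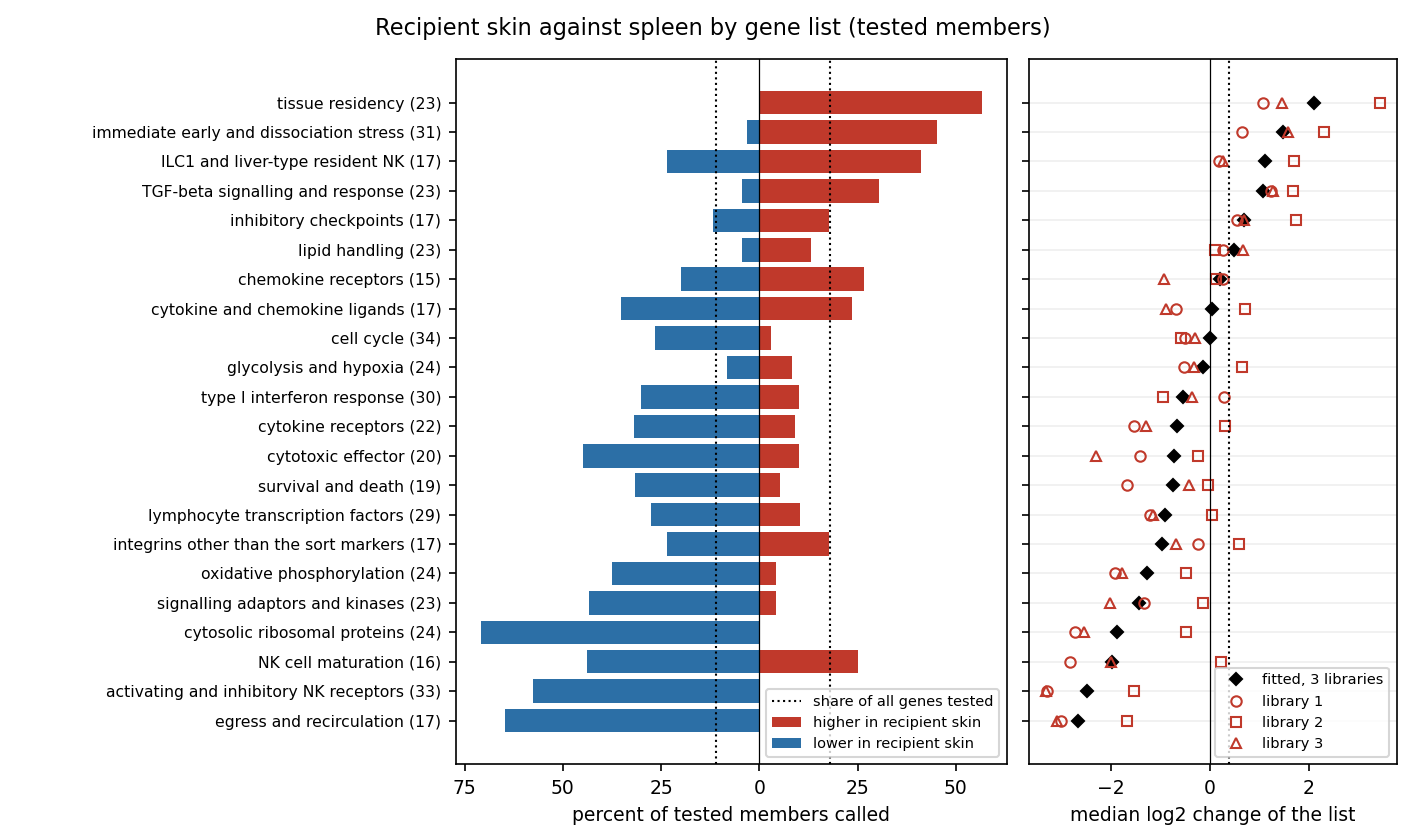
Left, percentage of the tested members of 22 gene lists that were higher (red) or lower (blue) in recipient skin than in spleen, with dotted lines at 17.9% and 11.0%, the shares of all 16045 genes; right, fitted median log2 change of each list (black diamond) and its median in recipient skin library 1 (circle), 2 (square) and 3 (triangle), with the all-gene median of 0.40 dotted. Residency and immediate early genes lie right of that line and NK receptor, egress and ribosomal genes left of it.

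Of 16 NK cell maturation genes tested, 7 fell and 4 rose (median -1.97). The split was 3 falls and 4 rises on the leukocyte scale (median -0.02) and 3 and 2 with library 2 alone (median 0.22). Klrg1, an inhibitory receptor of terminally mature NK cells, was at 0, 9.29 and 3.47 in recipient skin and at 441, 386 and 447 in spleen (log2 -6.89 ± 0.70, adjusted p = 4.67e-07). Cma1, which encodes a chymase, was listed at 0 in skin libraries 1 and 2 and was at 11.8 in library 3, against 332, 277 and 350 (adjusted p = 1.11e-07). Both passed with library 2 alone (adjusted p = 0.000443 and 3.38e-09). Kit, the stem cell factor receptor found on immature NK cells, was at 126, 158 and 204 against 24.0, 23.5 and 5.13. It rose 10.3-fold (adjusted p = 0.000651), with similar values in the 3 skin libraries. Kit and Cma1 are also on the mast cell and basophil marker list, and the part of such cells in these values was not tested. Without any 1 library 2 to 3 maturation genes rose and 4 to 9 fell.

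Of 17 genes of ILC1 and liver-type resident NK cells, 7 rose and 4 fell (median 1.11). The next gene given, Styk1, belongs to the maturation list and not to this one. Styk1, a kinase-like receptor, was at 1341, 229 and 1378 against 61.5, 79.3 and 59.9 and rose 11.2-fold (adjusted p = 0.00139), with library 2 the lowest of the skin libraries and no call there alone (adjusted p = 0.384). Tmem176a, which encodes a membrane protein, was at 16.6, 62.7 and 12.5 against 1.13, 0.854 and 1.52 and rose 11.5-fold (adjusted p = 0.0028). Gzmc and Tnfsf10, which rose, and Ncr1 and Gzma, which fell, are named above and belong to the ILC1 list too. Only 2 of the 17 fell without recipient skin library 3 or without any 1 spleen library.

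Of 29 lymphocyte transcription factor genes tested, 8 fell and 3 rose (median -0.92). Tbx21 (T-bet), which drives NK maturation, was at 40.4, 436 and 30.4 in recipient skin and at 422, 414 and 387 in spleen. Library 2 thus lay at the spleen level and libraries 1 and 3 far below it; the fall (log2 -2.30 ± 0.82, adjusted p = 0.0376) did not pass with library 2 alone (adjusted p = 0.998), on the leukocyte scale (adjusted p = 0.662) or without recipient skin library 1 (adjusted p = 0.173), library 3 (adjusted p = 0.207) or any spleen library (adjusted p = 0.0794 to 0.0875). Eomes, the factor that separates NK cells from ILC1, was at 12.4, 3.57 and 264 against 113, 96.4 and 93.5, so that libraries 1 and 2 were below and library 3 above every spleen library. Its change did not pass (adjusted p = 0.12) except with library 2 alone (adjusted p = 0.0172).

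Id2, an inhibitor of E proteins needed by innate lymphocytes, was at 3.67, 217 and 37.2 against 566, 545 and 572 and fell 16.6-fold (adjusted p = 0.00244; 0.572 with library 2 alone). Zeb1, a repressor with many roles, was at 120, 84.2 and 149 against 21, 19.5 and 24.4 and rose 5.12-fold (adjusted p = 0.00948; 0.335 with library 2 alone), with no overlap. Irf8 and Ikzf1, factors of lymphoid development, fell 6.45-fold and 7.98-fold (adjusted p = 0.0066 and 0.00587), and without recipient skin library 3 Irf8 did not pass (adjusted p = 0.0554). Neither passed on the leukocyte scale (adjusted p = 0.274 and 0.182) or with library 2 alone (adjusted p = 0.775 and 0.49). Ikzf1 is 1 of the 20 genes that set the leukocyte scale, so its value there was partly fixed by the scaling. The count of falls was 4 without recipient skin library 3 and 6 without library 1. Rises were 1 or 2 without any 1 library. On the leukocyte scale 8 of the 29 rose and 1 fell.

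Of 17 cytokine and chemokine ligand genes tested, 6 fell and 4 rose, Areg, Vegfa, Tnf and Lta (median 0.05). Ccl5, a chemoattractant of leukocytes, was at 29.0, 218 and 15.6 in recipient skin and at 7020, 6448 and 7121 in spleen and fell 143-fold (log2 -7.16 ± 0.78, adjusted p = 1.39e-06). It passed with library 2 alone (adjusted p = 0.00308). Ccl3 was at 4.33, 0 and 0 against 55.4 to 92.1 and Ccl4 at 9.07, 2.81 and 3.51 against 107 to 112 (adjusted p = 0.0017 and 0.00283), and Ccl4 did not pass with library 2 alone (adjusted p = 0.065). The chemokine gene Xcl1 was at 32.3, 485 and 17.6 against 40.2, 29.8 and 30.5 and did not pass (adjusted p = 0.452). Vegfa, an angiogenic factor, was at 21, 138 and 19.0 against 2.04, 0.631 and 0.375 and rose 20.8-fold (adjusted p = 0.000787). The interferon-gamma gene Ifng was at 0, 10.5 and 8.79 against 21.6 to 23.8 and did not pass (adjusted p = 0.098). On the leukocyte scale 6 ligand genes rose and 3 fell, and with library 2 alone 3 rose and 2 fell. Without recipient skin library 1, or library 3, 3 ligand genes fell.

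Of 22 cytokine receptor genes tested, 7 fell and 2 rose (median -0.66). Il10ra, the interleukin-10 receptor chain, was at 0, 22.7 and 7.48 in recipient skin and at 288, 250 and 270 in spleen (adjusted p = 8e-05). Il12rb1, shared by the interleukin-12 and interleukin-23 receptors, was at 4.54, 4.28 and 3.34 against 64.1, 42.9 and 53.9 and fell 10.7-fold (adjusted p = 0.000542). Il18rap, a chain of the interleukin-18 receptor, was at 76.1, 245 and 121 against 826 to 955 and fell 6.57-fold (adjusted p = 0.000497; 0.127 with library 2 alone). All 3 were below spleen in every skin library, and Il12rb1 and Il18rap did not pass on the leukocyte scale (adjusted p = 0.105 and 0.218). Il2ra (CD25), the high-affinity interleukin-2 receptor chain, was at 3.59, 153 and 72.4 against 1.66, 3.77 and 2.15 and rose 10.9-fold (adjusted p = 0.0066), with library 1 close to spleen. Il2rb, the chain shared with the interleukin-15 receptor, was at 266, 2127 and 125 against 1295 to 1607 and did not pass (adjusted p = 0.102). Scaled to leukocyte RNA, 9 of the 22 rose and 1 fell, and with library 2 alone 2 rose and 2 fell.

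Of 15 chemokine receptor genes tested, 4 rose and 3 fell (median 0.21). Ccr8, a receptor found on skin-homing lymphocytes, was at 57.7, 375 and 31.5 in recipient skin and at 0.673, 0.366 and 0 in spleen and rose 67.9-fold (log2 6.09 ± 0.93, adjusted p = 0.000184). It passed with library 2 alone (adjusted p = 0.000229) and whichever library was left out, and it was the only rise of the list that did the latter. Cxcr6, a receptor of resident lymphocytes, was at 26.5, 56.1 and 23.9 against 0.724, 8.82 and 7.71 (adjusted p = 0.0395; 0.201 without spleen library 1 and 0.228 with library 2 alone). Ccr4, another skin-homing receptor, was at 14033 in library 1 and at 0.628 and 13.6 in libraries 2 and 3, so its rise rested on library 1 (adjusted p = 0.0171; 0.213 without that library). Cmklr1, the chemerin receptor, was at 2.30, 2.64 and 8.40 against 33.0 to 40.8 and fell 7.73-fold (adjusted p = 0.00733; 0.421 on the leukocyte scale and 0.0968 with library 2 alone). Without any 1 library the list held 1 to 4 rises, with 1 without spleen library 1.

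Of 17 checkpoint genes tested, 3 rose and 2 fell (median 0.69), near the shares of all genes (17.9% and 11.0%). Tigit, an inhibitory receptor for nectin family ligands, was at 269, 182 and 195 in recipient skin and at 59.4, 52.1 and 75.5 in spleen and rose 3.40-fold (adjusted p = 0.00936; 0.261 with library 2 alone). The 3 skin libraries were alike although their leukocyte RNA was not. Cd274 (PD-L1) was at 66.4, 158 and 41.6 against 25.6, 14.5 and 18.7 and rose 3.83-fold (adjusted p = 0.00642, and the same value with library 2 alone). Lair1, an inhibitory collagen receptor, was at 16.6, 2.46 and 12.1 against 38.5 to 67.5 and fell 5.54-fold (adjusted p = 0.00208; 0.614 on the leukocyte scale). Vsir (VISTA), listed under an older symbol, was at 2.89, 56.4 and 11 against 143 to 158 and fell 11-fold (adjusted p = 0.00365). On the leukocyte scale 10 rose and 0 fell, against 34.9% and 1.22% of all genes.

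Of 23 genes of TGF-beta signalling and response tested, 7 rose, 1 fell and 15 did not pass (median 1.07). Furin, the protease that matures TGF-beta, was at 576, 540 and 98.2 in recipient skin and at 27.6, 25.3 and 26.6 in spleen and rose 11.4-fold (adjusted p = 0.000358). Tgfbr1, the type I receptor, was at 365, 53.2 and 258 against 11.8, 18.6 and 15.2 and rose 10.8-fold (adjusted p = 0.00123; 0.358 with library 2 alone). Pmepa1, a target gene that feeds back on the pathway, was at 9.43, 35.2 and 29.9 and listed at 0 in every spleen library (adjusted p = 0.000616). No skin library overlapped spleen in these 3 genes. Smad3, a signal transducer of the receptor, was the gene that fell, from 135 to 147 in spleen to 0, 44.0 and 7.76 (adjusted p = 0.000371; 0.112 with library 2 alone). Tgfbr2 was at 81.5, 559 and 37.9 against 86.1 to 94 and did not pass (adjusted p = 0.609). With library 2 alone 5 of the 23 rose and 0 fell; 5 of the 7 rises passed whichever library was left out.

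Immediate early and stress genes are induced by activation and also by tissue dissociation. Of 31 tested, 14 rose and 1 fell (median 1.48). Fos was at 383, 861 and 511 in recipient skin and at 35.3, 22.7 and 25.9 in spleen and rose 19.4-fold (log2 4.28 ± 0.61, adjusted p = 8.13e-05). Fosb and Egr1, 2 more transcription factor genes of this class, rose 36-fold and 30.7-fold (adjusted p = 0.000224 and 0.000535; 0.0597 for Egr1 with library 2 alone). Dusp1, a phosphatase that ends MAP kinase signals and whose promoter is shown above, was at 131, 767 and 449 against 58.0, 51.2 and 47.7 and rose 6.73-fold (adjusted p = 0.000603).

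Atf3, a stress-induced factor, was at 33.1, 133 and 121 against 1.55, 0.412 and 2.43 and rose 35.6-fold (adjusted p = 0.000912). Klf4 was at 43.2, 57.3 and 37.2 against 2.55 to 4.24 and rose 10.8-fold (adjusted p = 0.00109), and the heat shock gene Hspa1a was at 11, 44.7 and 12.5 against 0, 0 and 1.11 (adjusted p = 0.00566). In each of these genes all skin libraries exceeded all spleen libraries. The NF-kappaB inhibitor Nfkbia rose 3.21-fold (adjusted p = 0.0089), and Tnfaip3, which restrains the same pathway, rose 6.16-fold (adjusted p = 0.0149; 0.104 without recipient skin library 2). The part of tissue dissociation in these values was not tested. On the leukocyte scale 23 rose, with library 2 alone 12 rose, and 11 of the 14 passed whichever library was left out.

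Signalling, ribosomal and respiratory chain genes were lowest in recipient skin libraries 1 and 3, where leukocyte RNA was low too. Of 23 genes of adaptors and kinases tested, 10 fell and 1 rose (median -1.43). Tyrobp (DAP12), the adaptor of Ly49H, was at 60.8, 585 and 69.0 in recipient skin and at 1349, 1185 and 1249 in spleen and fell 9.24-fold (adjusted p = 0.00262; 0.629 with library 2 alone). Fcer1g, the adaptor of NKp46, was at 82.4, 971 and 101 against 963 to 1137 (adjusted p = 0.0151), and library 2 equalled spleen (adjusted p = 0.999 with library 2 alone; 0.561 on the leukocyte scale; 0.112 without library 1 and 0.0937 without library 3). The exchange factor Vav3 rose 5.09-fold (adjusted p = 0.00825; 0.304 with library 2 alone), from 5.53 to 7.05 in spleen to 31.9, 26.3 and 57.3. With library 2 alone 1 of the 23 fell, and the count of falls was 3 without recipient skin library 1 or 3.

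Of 24 cytosolic ribosomal protein genes tested, 17 fell and 0 rose (median -1.87). Rpl32 was at 19.5, 157 and 46.7 in recipient skin and at 530, 429 and 446 in spleen, and Rplp1 at 62.1, 335 and 58.5 against 702 to 869 (adjusted p = 0.00114 and 0.00123). Library 2 was the highest of the skin libraries in both. On the leukocyte scale, and with library 2 alone, 0 of the 24 passed, with medians of 0.07 and -0.49; the count of falls was 10 without recipient skin library 1 or 3. Of 24 oxidative phosphorylation genes tested, 9 fell and 1 rose (median -1.28), and without recipient skin library 1 the count was 0. None passed with library 2 alone. Uqcrfs1, a complex III subunit, was at 8.80, 91.0 and 12.9 against 93.3 to 103 (adjusted p = 0.0089; 0.0784 without library 1 and 0.0573 without library 3).

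Interferon-stimulated genes moved in both directions. Of 30 tested, 9 fell and 3 rose (median -0.53). Gbp3, a guanylate-binding protein gene induced by interferons, was at 2.92, 1.99 and 0 in recipient skin and at 30 to 81.3 in spleen (log2 -4.41 ± 0.73, adjusted p = 0.000314). Rsad2, the antiviral enzyme viperin, went the other way, with 4.68, 260 and 436 against 1.37, 1.25 and 0.734 (41.2-fold, adjusted p = 0.00191). Library 1 was near spleen for Rsad2, and all 3 skin libraries were below spleen for Gbp3. The fall of Gbp3 passed on the leukocyte scale (adjusted p = 0.00902) and with library 2 alone (adjusted p = 0.0273). The list held 10 rises and 1 fall on the leukocyte scale and 1 rise and 2 falls with library 2 alone; without any 1 library 4 to 9 fell, with 4 without any spleen library.

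Of 34 cell cycle genes tested, 9 fell and 1 rose (median -0.01). Mcm5, a subunit of the replicative helicase, was at 14.6, 5.69 and 14.5 in recipient skin and at 55.9, 57.0 and 49.8 in spleen and fell 4.70-fold (adjusted p = 0.00728). The gene that rose was Tyms, thymidylate synthase, at 356, 89.1 and 786 against 38.9 to 64.3 (adjusted p = 0.0185; 0.829 with library 2 alone, 0.0649 without recipient skin library 1 and 0.13 without library 3). The proliferation marker Mki67 was at 30.6, 18.2 and 59.2 against 34.7, 24.1 and 19.6, and the groups overlapped (adjusted p = 0.758). On the leukocyte scale 0 fell, with library 2 alone 1 fell, and the count was 4 without recipient skin library 1.

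Single metabolic genes stood apart from lists that moved little. Of 24 glycolysis and hypoxia genes tested, 2 rose and 2 fell (median -0.13). Hk2, the inducible hexokinase, was at 47.2, 94.7 and 58.3 in recipient skin and at 2.80, 3.41 and 1.86 in spleen and rose 17.9-fold (log2 4.16 ± 0.76, adjusted p = 0.000563). Pfkp, a phosphofructokinase isoform, was at 25.9, 44.1 and 25 against 222, 204 and 212 and fell 6.76-fold (adjusted p = 0.000542; 0.395 on the leukocyte scale and 0.083 with library 2 alone). The 3 skin libraries were alike in both genes. Of 23 lipid handling genes 3 rose and 1 fell (median 0.48). Dgat1, which makes triglycerides, was at 205, 706 and 66.9 against 28.5 to 31.5 and rose 6.86-fold (adjusted p = 0.00861), and without recipient skin library 1, or without spleen library 2 or 3, 1 lipid gene rose. Of 19 survival genes 6 fell and 1 rose (median -0.74), among them Bcl2 at 33.8, 57.6 and 84.3 against 205 to 232 (adjusted p = 0.0128; 0.961 on the leukocyte scale, 0.235 with library 2 alone and 0.072 without recipient skin library 1).

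Transcripts of other skin cells were present in the recipient skin libraries. Of 12 keratinocyte markers tested 3 rose, of 16 fibroblast markers 5, of 12 endothelial markers 4, of 6 melanocyte markers 4 and of 7 Schwann cell markers 4. None of these lists held a fall. Of all genes tested, 17.9% rose and 11.0% fell. The epithelial factor Trp63 was at 66.2, 4.80 and 63.0 in recipient skin and at 0, 0.335 and 0 in spleen (adjusted p = 0.00746). Fibronectin (Fn1) was at 416, 54.4 and 202 against 2.90, 38.3 and 6.31 and rose 16.1-fold (adjusted p = 0.00273). Both were lowest in library 2, and with library 2 alone none of the markers of these 5 lists passed. The 5 lists, without recipient skin library 1, held 2, 2, 1, 1 and 3 rises, and without library 3 they held 2, 1, 2, 1 and 0.

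Summed keratinocyte markers were at 598, 142 and 222 against 14.3 to 21.7, and summed endothelial markers at 1190, 158 and 635 against 148 to 243, while Schwann cell markers were highest in library 2, at 153, 274 and 150. T cell markers summed to 380, 792 and 568 against 506 to 649, so the groups overlapped; 2 of 14 rose, among them Cd8a, at 62.7, 39.5 and 93.2 against 1.89 to 7.25 (adjusted p = 0.0713 with library 2 alone). Trbc1, the T cell receptor beta constant gene, was at 69.5, 364 and 33.6 against 235 to 302 and did not pass (adjusted p = 0.165). Of 9 markers of dendritic epidermal gamma-delta T cells, skin lymphocytes that also carry CD103, 2 rose and 1 fell, and their sum was 252, 2411 and 285 against 1292 to 1492. The constant gene Tcrg-C1 was at 11, 6.49 and 5.66 against 0 to 0.392. Of 13 B and plasma cell markers 5 fell, with Cd79b listed at 0 in every skin library and at 14.2, 87.0 and 56.0 in spleen. Gzmc, Itgae, Areg and Ccr8 were highest in library 2. The keratinocyte, fibroblast, endothelial and melanocyte sums were lowest there, and the Schwann cell, T cell, gamma-delta T cell and ILC2 and ILC3 sums were highest there. The ILC2 and ILC3 markers summed to 99.6, 585 and 213, and Areg was the most abundant of them in recipient skin. Fcer1g, the most abundant gamma-delta T cell marker there, and Xcl1 are also on the NK cell marker list. Those sums are therefore not independent of the genes named above. The part of these other cells in the results above was not tested.

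Several of the largest changes lay outside the lists. Spsb1, an adaptor of a ubiquitin ligase, was at 38.1, 189 and 71.5 in recipient skin and at 0, 0.268 and 0.323 in spleen (log2 6.10 ± 0.75, adjusted p = 1.06e-05). Sdk2, a cell adhesion molecule, was at 96.9, 1530 and 178 against 2.85, 1.63 and 2.08 (95.2-fold, adjusted p = 0.00446). Igfbp3, a binding protein of insulin-like growth factors, was at 19.5, 72.6 and 1043 against 0 to 0.65 (adjusted p = 0.000382). In all 3 the skin libraries lay above spleen, with the highest value in library 2 or 3.

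Mkx, a transcription factor of tendon cells, was at 1214, 58.1 and 1366 against 0 to 0.907 (log2 8.31 ± 1.39, adjusted p = 0.000314), and Zfp365 and Lmo7 rose 74.9-fold and 70.6-fold (adjusted p = 0.00295 and 0.00246). These 3 were not called with library 2 alone (adjusted p = 0.142, 0.194 and 0.13). Frmd3 was at 5693 in library 2 and at 18.0 and 13 in the others, against 0.35 to 0.737 (adjusted p = 0.0283); the call was lost without recipient skin library 2 (adjusted p = 0.18) and without any 1 spleen library (adjusted p = 0.061 to 0.0685). The other named rise was 1 clone-named entry, at 164, 67.7 and 323 against 0 to 2.88.

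Of the falls outside the lists, Nod1, a sensor of bacterial peptidoglycan on chromosome 6, was listed at 0 in all 3 recipient skin libraries and was at 199, 174 and 216 in spleen (adjusted p = 1.3e-12). Gimap3, a lymphocyte GTPase, was at 4.86, 27.4 and 0 against 331, 309 and 298 (adjusted p = 6.96e-05). Fau, a ribosomal protein gene, was at 0, 139 and 0 against 243 to 265 (adjusted p = 0.00152; 0.823 with library 2 alone). Fgf11 and Mettl21e fell 108-fold and 85-fold against spleen (adjusted p = 0.00165 and 0.0173). The spleen level of Fgf11, 730 to 1954, was not shared by blood, where it was at 0.271, 0 and 1.21. Mettl21e was at 143 to 386 in spleen and at 68.5, 0 and 365 in blood, where library 3 lay within the spleen range. Without spleen library 2 the limma adjusted p of Mettl21e was 0.052, and on the leukocyte scale it was 0.0719.

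The same organ comparison in the F1 model was set beside these values. It called 2524 of 16045 genes (15.7%), 1812 higher (11.3%) and 712 lower (4.44%). The split was 6939 higher and 76 lower on the leukocyte scale and 858 and 622 after quantile normalization. Leukocyte RNA was low in F1 recipient skin too, with 32.2%, 19.4% and 9.92% of the pan-leukocyte level of circulating libraries. Of the 2866 genes higher in B6 recipient skin, 1279 were also called higher in F1 (44.6% of the B6 list and 70.6% of the F1 list), and of the 1759 lower 397 were (22.6% and 55.8%). The difference between the models passed for 2 genes (0.0125%), both lower in B6, and 1022 genes had an unadjusted p under 0.05; without B6 recipient skin library 2 it passed for 141 genes and without library 3 for 10. Strain, Ncr1 allele, graft and day differ together between the models and cannot be told apart.

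Nod1 was at 22.1, 16.6 and 10.7 in F1 recipient skin and at 186, 211 and 165 in F1 spleen, so it fell in both models, but only B6 skin was listed at 0 (difference in log2 change -4.14 ± 0.59, adjusted p = 0.0023). Enpp4, an ectonucleotidase, was at 6.74, 3.04 and 13.9 in B6 recipient skin and at 140, 124 and 121 in B6 spleen, a fall of 16.7-fold (adjusted p = 8.09e-07). In F1 it was at 36.1, 35.7 and 25.8 against 42.4, 51.4 and 48.1, a change of -0.54 ± 0.43 (adjusted p = 0.388). The difference was -3.52 ± 0.60 (adjusted p = 0.0242; 0.39 on the leukocyte scale).

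Gzmc rose in F1 as well, from 0, 0 and 0.764 in spleen to 94.3, 133 and 25.7 in recipient skin (log2 5.85 ± 1.04), and its difference between models did not pass (adjusted p = 0.653). Itgae was at 16.1, 57.4 and 117 against 6.12 to 6.53 in F1 and did not pass there (adjusted p = 0.0542), nor did its difference (adjusted p = 0.652). Areg was at 15.9, 4.30 and 0.349 in F1 recipient skin (adjusted p = 0.132; 0.654 for the difference). Ncr1 fell by 4.92 ± 0.44 in F1 (adjusted p = 8.79e-08). Residency genes rose in 11 of 23 and fell in 1 in F1, egress genes fell in 10 of 17, NK receptor genes fell in 22 of 33 and rose in 2, and immediate early genes rose in 14 of 31. Scaled to leukocyte RNA, 17 residency genes rose in F1, 2 egress genes fell and 2 rose, 7 NK receptor genes fell and 3 rose, and 4 cell cycle genes fell and 1 rose. Cell cycle genes fell in 18 of 34 in F1 (median -2.50) and in 9 in B6 (median -0.01). The difference between models was above 0 in 32 of 34, against 7941 of all 16045 genes, and passed in 0 of the 34.

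**Figure D4:**
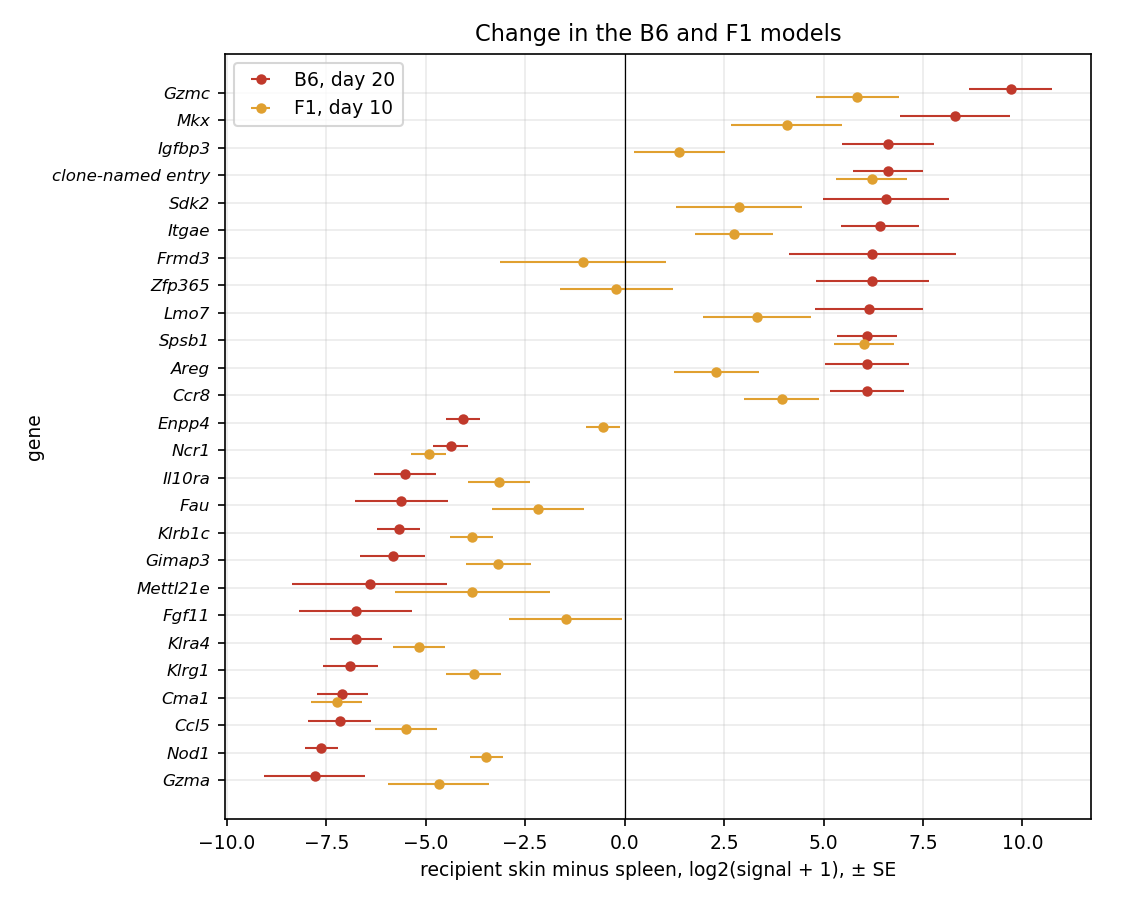
Fitted log2 change (recipient skin minus spleen, with SE) of 26 genes in the B6 model at day 20 (red) and the F1 model at day 10 (orange), 3 libraries per group. The models lie on the same side of 0 for Gzmc, Ccl5 and Ncr1, and lie farthest apart relative to their errors for Nod1 and Enpp4, the 2 genes whose difference passed.

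Recipient skin was also compared with CD49a+ cells of the graft, which share the sort marker, strain and day. Only 36 of 16045 genes passed (0.224%), 5 higher (0.0312%) and 31 lower (0.193%) in recipient skin, with a median change of -0.06. Same-numbered libraries of these groups deviated together. With the replicate number as a block 21 genes passed, 2 higher and 19 lower. That block is shared by all B6 groups, also those whose numbers did not pair with recipient skin, so it is no pairing of these groups only. Library 2 held the most leukocyte RNA in both groups, with 8.38%, 73.8% and 16.1% of the circulating level in the graft cells. Dclre1b, a nuclease of telomere and DNA repair, was at 67.4, 781 and 753 in recipient skin and at 21.8, 20.5 and 21.8 in the graft cells (log2 3.94 ± 0.76, adjusted p = 0.0204), and Rabggta, which prenylates Rab proteins, was at 214, 61.0 and 168 against 26.3, 29.2 and 23.4 (adjusted p = 0.0429; 0.07 with the block). These 2 genes met the naming criteria as higher.

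Genes lower in recipient skin than in CD49a+ graft cells included interferon-inducible ones. Cxcl10, an interferon-induced chemokine, was at 0, 7.20 and 2.27 against 212, 37.9 and 62.7 (adjusted p = 0.0376; 0.0555 with the block) and Gbp3 at 2.92, 1.99 and 0 against 59.1, 14.4 and 107 (adjusted p = 0.00955). Of the 30 interferon-stimulated genes tested, 2 fell and 0 rose (median -1.30), and with the block 1 fell; 6 had a change above 0. Nod1 was at 8.61, 12.6 and 25.8 in the graft cells and listed at 0 in recipient skin (adjusted p = 7.49e-06). The replication factor Atad5 and the acyltransferase-like gene Oacyl fell as well, from 51.5 to 383 and from 35.4 to 558 in graft cells (adjusted p = 0.0116 and 0.0376; 0.0586 for Oacyl with the block).

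Gzmc was at 55.5, 1504 and 168 and Itgae at 24.0, 701 and 54.9 in CD49a+ graft cells. For both genes graft library 2 lay within the range of recipient skin, and graft libraries 1 and 3 lay below every recipient skin library. Neither gene passed (limma adjusted p = 0.403 and 0.341, or 0.374 and 0.266 with the block). Recipient skin held the higher value of both genes in each of the 3 same-numbered pairs. None of the other 21 gene lists held a call in either direction. Without recipient skin library 2, 1016 genes passed, and without library 1, 19 did; on the leukocyte scale 126 did, of which 6 were higher.

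Against CD49b+ cells of the graft, 277 genes passed (1.73%), 49 higher (0.305%) and 228 lower (1.42%). The split was 46 higher and 38 lower on the leukocyte scale and 61 and 54 with library 2 alone. Both graft comparisons use the same recipient skin libraries. Gzmc was at 5.06, 8.61 and 66.9 in these graft cells, below every recipient skin library (log2 6.09 ± 1.04, adjusted p = 0.00212). Itgae at 1.84, 23.2 and 23.1 and Ccr8 at 0, 8.45 and 1.14 were lower too (adjusted p = 0.00428 and 0.00487), and so was Dclre1b at 17.6, 4.57 and 18.5 (adjusted p = 0.0011).

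In the other direction, Gzma was at 1702, 2626 and 1953 in CD49b+ graft cells (adjusted p = 0.00798) and Klra4 at 286, 644 and 351 (adjusted p = 1.86e-05), above all recipient skin libraries. Ccl5 was at 1637, 3968 and 1724 and Klrg1 at 87.3, 152 and 95.8 (adjusted p = 0.000263 for each). Krt79, a keratin gene, was listed at 0 in recipient skin and was at 21.1, 265 and 534 (adjusted p = 0.0114), and Fam124a was at 8687, 583 and 70.8 against 2.48, 8.85 and 21.2 (adjusted p = 0.0434). Of 33 NK receptor genes 8 fell and 0 rose (median -1.68), of 20 cytotoxic effector genes 5 fell and 1 rose, and of 23 residency genes 2 rose and 1 fell (median -0.46). The NK receptor falls were 18 without recipient skin library 2, 5 without library 1 and 3 on the leukocyte scale, and the cytotoxic falls were 8, 1 and 3. Of 31 immediate early genes 0 rose and 0 fell. Without recipient skin library 2, 1954 genes passed, without library 1, 128, and without library 3, 178.

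**Figure D5:**
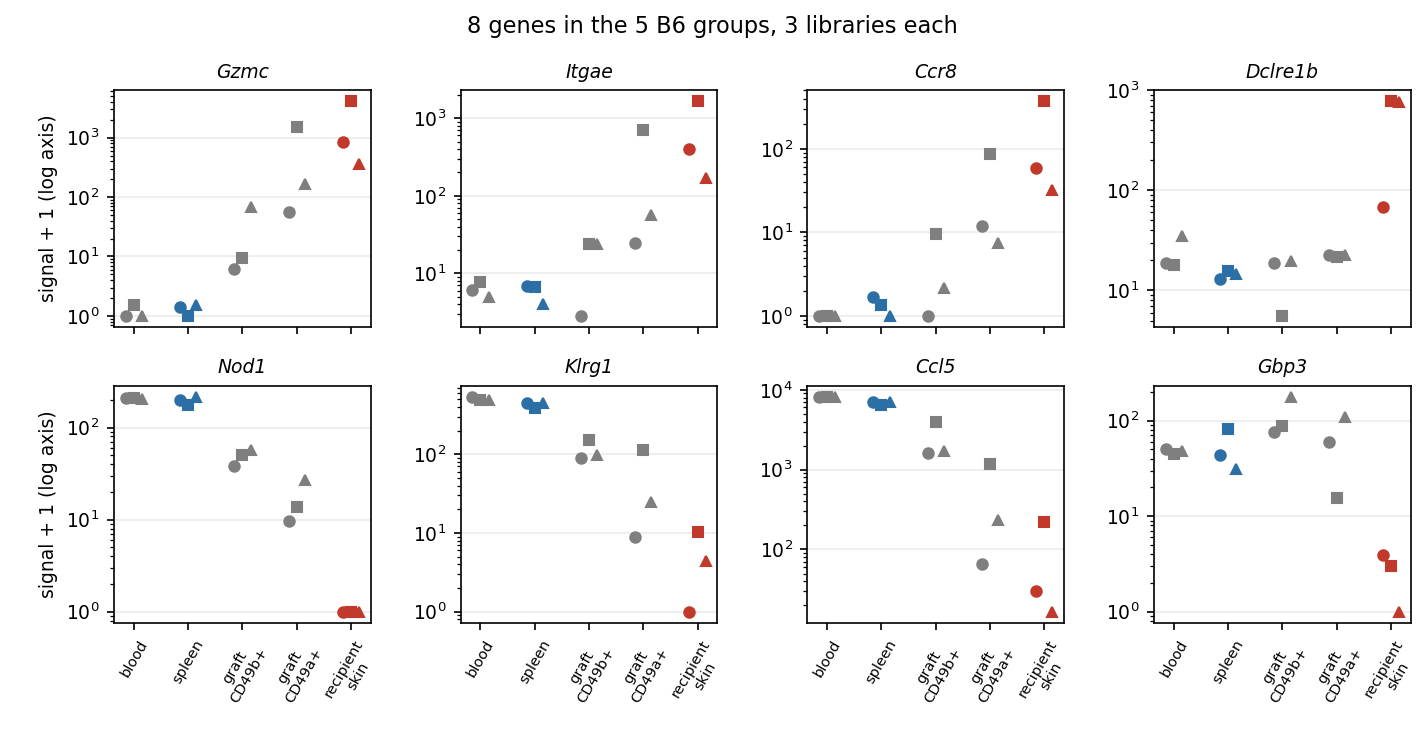
Normalized signal plus 1 (log axis) of 8 genes in blood, spleen, graft CD49b+, graft CD49a+ and recipient skin cells of the B6 model, with 3 libraries per group (circle, square and triangle for libraries 1, 2 and 3). Gzmc and Itgae lie above spleen and blood in every library of both CD49a+ groups, Dclre1b does so in recipient skin, and Klrg1 and Ccl5 are highest in blood and spleen.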

How the data were processed

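RNA of sorted NK cells was sequenced from total RNA (smartRNA-Seq, per the labels' protocols) in 30 libraries of 10 groups, 3 per group. The deposited table holds a DESeq2-normalized signal per gene, made by the authors with Salmon and DESeq2 on GRCm38/mm10, per the submitters' processing notes; the sources used here give no versions. Of 30616 entries, 30587 name a gene (27 entries are dates, 1 is a letter, 1 a remark and 1 has no name); 2 unnamed columns were not used. The values are no counts: read recovery gave 16.6% to 27.1% whole numbers (within 0.1), so read depth is unknown and count models were not run. The sum of the signal outside 13 predicted genes was 930030 to 1665087 in recipient skin and 738039 to 801275 in spleen.

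Genes that reached a signal of 10 in 3 or more libraries entered the test on log2(signal + 1) with limma 3.58.1 in R 4.3.3, with 1 mean for each of the 10 groups over all 30 libraries, trended and robust empirical Bayes, Benjamini-Hochberg adjustment over all 16045 genes and a threshold of 0.05. A log2 change on this scale understates the change of low genes. Differences between models are an interaction contrast. The replicate block fits 1 effect per replicate number within each model, shared by all groups of that model. Other steps used Python 3.11.15 with pandas 2.3.3, numpy 2.4.6 and matplotlib 3.10.9. The fit was tested on simulated data in which each gene had the same spread in every group. The recipient skin libraries varied more than spleen, so that test cannot show how the fit behaves with unequal spread. Gene positions come from GENCODE M21 (28581 genes matched), and 5 list members were found under older symbols. Replicate numbers were treated as pairing libraries where all 3 correlations of same-numbered deviations exceeded 0.1. By this rule recipient skin was not paired with spleen (-0.034, -0.052 and -0.007) or with CD49b+ graft cells (0.162, 0.411 and 0.036). The correlations with CD49a+ graft cells met the rule (0.137, 0.403 and 0.15), and values with the block are given there too. On the leukocyte scale these were 0.100, 0.358 and 0.113. Differently numbered libraries were not correlated. Library 2 held the most leukocyte RNA in both groups, so the rule cannot show that same-numbered libraries shared animals.

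Genes were named by rule: the 12 largest rises and falls past the threshold with a mean of 50 or more and no overlap of the libraries, up to 3 members of each of 22 gene lists by smallest p with the most abundant member, the most abundant members of 20 marker lists, and the 4 largest rises and falls against each graft group. Other members were named after their values were seen. The members and lists were chosen with earlier results of these data known. Members under the filter on low values were not tested: 1 of 24 residency genes, 2 of 19 ILC1 genes, 2 of 22 cytotoxic, 4 of 21 ligand, 1 of 34 NK receptor, 1 of 18 checkpoint, 2 of 17 chemokine receptor, 2 of 31 transcription factor, 2 of 25 TGF-beta, 1 of 32 immediate early, 1 of 25 glycolysis and 1 of 24 lipid genes, and 8 of 20 keratinocyte, 4 of 16 endothelial, 3 of 9 melanocyte, 3 of 10 Schwann cell and 2 of 16 T cell markers. Alternatives covered the pseudocount, the filter, 4 other scalings, array weights, a replicate block, the 6 libraries alone, blood as reference, plain empirical Bayes, each library left out and recipient skin library 2 alone. Some results are not reported here.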

Additional observations from a re-analysis of the deposited data

Results flagged for a closer look

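Only 2 results differed between the B6 and F1 models by the test of the difference itself, the interaction contrast of limma. For Nod1 the B6 minus F1 difference in the recipient skin minus spleen change was -4.14 ± 0.59 on the log2 scale (adjusted p = 0.0023, and 0.00279 on the leukocyte scale). It was listed at 0 in all 3 B6 recipient skin libraries and was at 22.1, 16.6 and 10.7 in those of F1. The Nod1 difference rests on these values listed at 0. A value of 0 stays 0 on the leukocyte scale, whereas the F1 recipient skin values are raised there. Passing on that scale is therefore no further support for Nod1. For Enpp4 the difference was -3.52 ± 0.60 (adjusted p = 0.0242, and 0.39 on the leukocyte scale). Strain, Ncr1 allele, graft and day cannot be told apart as the source of either difference.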

How the results depend on the processing

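Read depth is unknown, so edgeR and DESeq2 were not run. Recipient skin libraries 1 and 3 held little leukocyte RNA: of the 1759 genes lower than in spleen, 196 were called lower on the leukocyte scale and 149 with library 2 alone, and of the 2866 higher genes 2864 and 192 were called higher. The number of genes called against spleen, 4625, became 2554 with a filter of 50, 769 with the 6 libraries alone, 441 with library 2 alone and 2534 to 6861 with 1 of the 6 libraries left out. The difference between models, 2 genes, became 6 on the leukocyte scale, 29 with library 2 alone, 1 with a pseudocount of 5 and 2 to 141 with 1 B6 recipient skin library left out. Against CD49a+ graft cells, 36 became 126 on the leukocyte scale, 12 with a pseudocount of 5, 21 after quantile normalization and 19 to 1016 with 1 recipient skin library left out. Against CD49b+ graft cells, 277 became 84 on the leukocyte scale, 115 with library 2 alone and 128 to 1954 with 1 recipient skin library left out. Replicate numbers were treated as pairing recipient skin with CD49a+ graft cells, where the block gave 21 genes. Elsewhere the block was only an alternative. It gave 4869 genes against spleen (4524 shared), 1 for the difference between models and 351 against CD49b+ graft cells. Signs reversed for Fgf11 (2.75, adjusted p = 0.136) and S100a8 (0.37, adjusted p = 0.882) with blood as reference. On the leukocyte scale they reversed for Rplp0 (0.65, adjusted p = 0.364), Ctsw (1.38, adjusted p = 0.0375) and Itga2 (0.11, adjusted p = 0.933). The cause was not tested. Of 96 named genes that passed, 43 kept their call with the 6 libraries alone and 80 to 94 without any 1 recipient skin library.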

Other observations

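Markers of further cell types were measured beside the lists above. Their counts stand against 17.9% of all genes higher and 11.0% lower in recipient skin. Of 13 macrophage and monocyte markers tested 3 rose in recipient skin, among them Ms4a7 at 194, 16.5 and 63 against 1.56, 5.09 and 1.69 in spleen (limma adjusted p = 0.00198). Of 12 Langerhans and dendritic cell markers 3 rose, and their sum was 331, 1993 and 217 against 715, 1203 and 838, so the groups overlapped. Of 11 hair follicle markers 2 rose, of 9 pericyte markers 2 rose and 1 fell, and of 6 skeletal muscle markers 1 rose, which was titin (Ttn) at 356, 34.9 and 248 against 0.541, 5.21 and 1.03 (adjusted p = 0.00805). Of 7 adipocyte markers 0 passed. Of 7 mast cell and basophil markers 2 rose, Kit among them, and 1 fell, Cma1. Of 7 ILC2 and ILC3 markers 1 rose, Areg, and of 9 erythroid and platelet markers 1 fell. Of the 20 pan-leukocyte genes 11 fell (median -2.33), among them Ptprc (CD45), at 250, 994 and 217 against 2151, 2230 and 2399 (adjusted p = 0.0013).

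The spleen libraries also differed among themselves in a few transcripts. The neutrophil gene S100a8 was at 163, 2.1 and 193 in spleen libraries 1, 2 and 3, and S100a9 at 119, 2.23 and 155. The immunoglobulin gene Igkc was at 10.4, 1021 and 87. Lgr5, a marker of hair follicle stem cells, was at 1762, 2646 and 0.248 in spleen and at 114, 6.52 and 18.2 in recipient skin, so spleen libraries 1 and 2 lay above every skin library and spleen library 3 below them. Both neutrophil genes were called lower in recipient skin (adjusted p = 0.0222 for S100a8, 0.0756 without recipient skin library 1, 0.104 without spleen library 1 and 0.111 without spleen library 3; adjusted p = 0.0135 for S100a9, 0.0693 without spleen library 1 and 0.0763 without spleen library 3).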
